A study of Oryza sativa with 3 samples.

Results

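Rice roots carry 2 large families of protein kinases that act on calcium signals, and the transcripts of 44 of their loci were followed here after exposure to vanadate. The loci comprised 22 calcium-dependent protein kinases (CPK) and 22 CBL-interacting protein kinases (CIPK), given as a list of locus identifiers and found on the array by the locus part of the probe name. All 44 were among the 29859 loci with a probe. Each locus was represented by its probe of highest mean signal among those with a value on all arrays, and 35 loci, 16 CPK and 19 CIPK, passed the filter on dim probes and were tested. The family of each locus is that of the list. The files and the reference table used here pair none of the loci with a gene name, so the loci are called by their identifiers, whose first digits give the chromosome.

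The study exposed 6-day-old, dark-grown seedlings of the rice cultivar TN67 to 1 mM vanadate or to water. Roots were taken at 1 h and 3 h, and the RNA of both times was pooled by fixed volume, so the times cannot be separated. In each of 3 biological replicates the RNA of vanadate-exposed roots (Cy5, red) was hybridised with that of water-exposed roots (Cy3, green) on 1 two-colour Agilent array. No array had the dyes exchanged, and an effect of the dyes therefore cannot be told apart from an effect of vanadate. In whole roots, fewer cells of a type and less RNA per cell cannot be told apart either.

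A CPK holds a serine/threonine kinase and calcium-binding EF hands in 1 polypeptide, so that it senses calcium and phosphorylates its targets itself. A CIPK has a related kinase domain but binds no calcium. It is switched on by a calcineurin B-like (CBL) sensor protein that docks on its regulatory part. In Arabidopsis, CPKs are known to phosphorylate NADPH oxidases in defence, and CBL-CIPK pairs are known to act on potassium channels and on a sodium exporter of the root. Vanadate is a phosphate analogue that blocks P-type ATPases, among which are calcium pumps.

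Pairs of arrays had Pearson correlations of 0.93, 0.89 and 0.92 over the log2 ratios of 31158 tested probes, which are not independent replicates. Between 73.7% and 76.1% of gene spots were well above background in the vanadate channel, against 69.0% to 75.3% in the water channel, and 0 spots were saturated. The arrays of replicates 1 and 2 lay on the same slide, and that of replicate 3 on another, which was scanned on another day. Outlier flags fell on 172, 129 and 958 of the 43144 gene spots of replicates 1, 2 and 3. As a check of the tissue, 2 loci listed from background knowledge as silicon transporters of the root endodermis and exodermis passed the scanner's test for signal well above background in vanadate and in water on each array. Loci listed for green leaves were detected in part: Os12g0274700 passed on 2 vanadate and 3 water arrays, Os12g0291100 on 1 and 2, and Os01g0600900 on 2 and 1. None of these 3 was called, and Os12g0291100 and Os01g0600900 had log2 ratios of -1.71 and -1.70 on replicate 3. The root markers were lower in vanadate, with log2 ratios of -2.72, -1.75 and -1.72 for Os02g0745100 and of -1.68, -0.66 and -0.72 for Os03g0107300 on replicates 1, 2 and 3. Their part in the results below was not tested.

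With the processing used here, most tested loci of either family were called higher in vanadate. Of the 16 tested CPK loci, 10 were called higher, 1 lower and 5 were not called, and of the 19 tested CIPK loci, 10 were called higher, 3 lower and 6 were not called (limma, Benjamini-Hochberg adjusted p under 0.05 over all tested probes). Over all 22130 tested genes, 29.1% were called higher and 20.7% lower, 49.7% in all. Rises of at least 2-fold were called at 3 CPK loci and at 0 tested CIPK loci, with 8.46% of all tested genes, and falls of at least 2-fold at 0 CPK loci and at 1 CIPK locus, with 1.53% of all tested genes. The count of large CIPK rises depended on the processing. With the scanner's processed signals 2 CIPK loci, Os01g0206700 at 1.43 and Os03g0634400 at 1.62, were called at over 2-fold. With an offset of 16 in the background correction Os01g0206700 was, at 1.07. Without replicate 3 Os01g0206700 stood at 1.06. Rises under 1.5-fold made up 4 of the 10 CPK rises and 8 of the 10 CIPK rises, against 46.5% of the 6430 rises over all genes.

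The median log2 ratio, vanadate over water, was 0.50 over the 16 CPK loci and 0.27 over the 19 CIPK loci, against 0.02 over all tested genes. On the arrays of replicates 1, 2 and 3 the CPK median was 0.47, 0.57 and 0.40, and the CIPK median was 0.23, 0.20 and 0.28. The CPK median was thus the higher on each array, by 0.25, 0.37 and 0.12. The difference of 0.23 between the medians became 0.05 without the filter on dim probes and 0.02 with flagged spots kept. Loci are not replicates, and no test was made on these medians. The ratios of the CPK loci also spread further, with an SD over loci of 0.79 against 0.49 for the CIPK loci. The count of CIPK rises depended on the processing, as did the calls over the whole array. With each array centred on its median in place of loess, 6 of 16 CPK and 2 of 19 CIPK loci were called higher. Over all tested genes the share was then 18.8%. Without replicate 2 the CIPK count was 5, with 22.7% of all tested genes called higher. With the scanner's processed signals the median of all tested genes moved to -0.11. Rises then made up 42.1% of all calls over the array in place of 58.4%. Under that setting 8 CPK and 6 CIPK loci were called higher, with 22.5% of all tested genes.

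**Figure D1:**
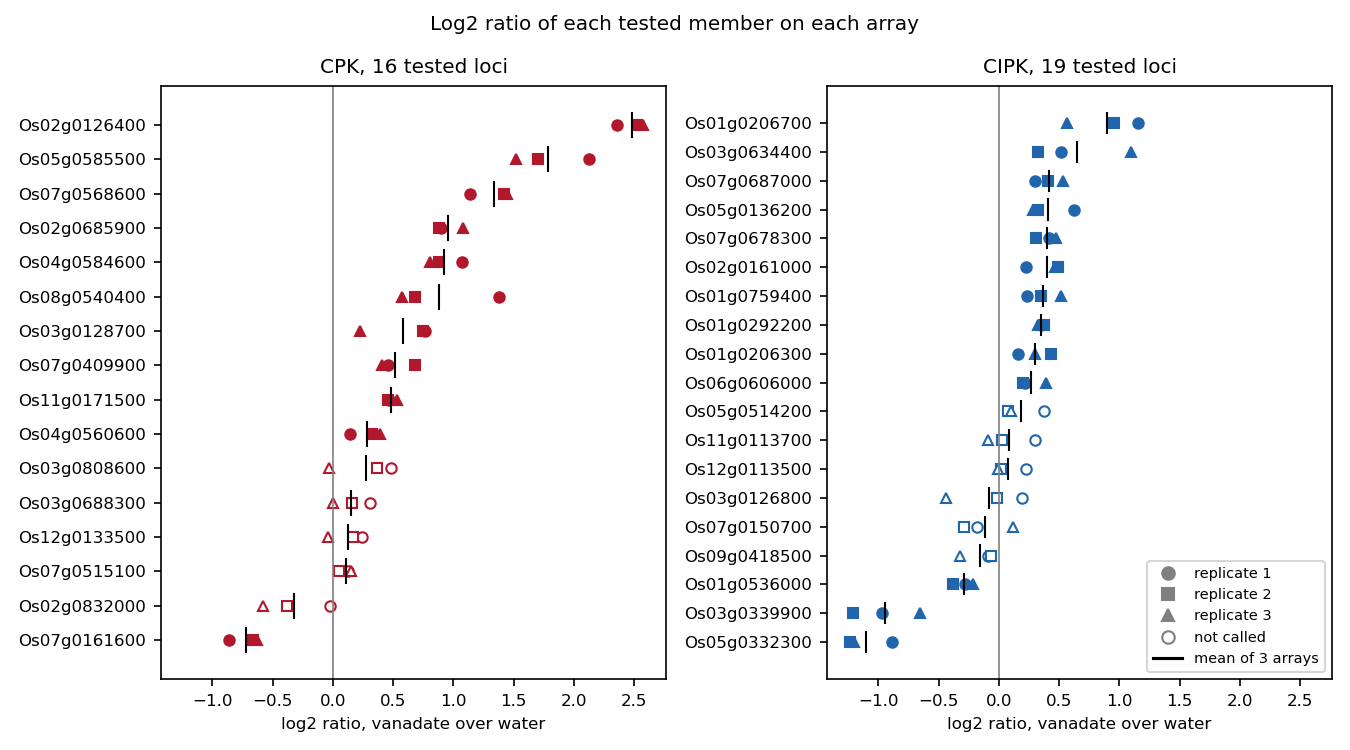
Log2 ratio, vanadate over water, of each tested CPK (left, red) and CIPK (right, blue) locus on the arrays of replicates 1, 2 and 3 (circle, square, triangle), with the mean of the 3 arrays as a black bar. Filled symbols mark loci called by limma at an adjusted p under 0.05 and open symbols loci not called. The CPK loci reach from -0.72 to 2.49 and the CIPK loci from -1.11 to 0.90.

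**Figure D2:**
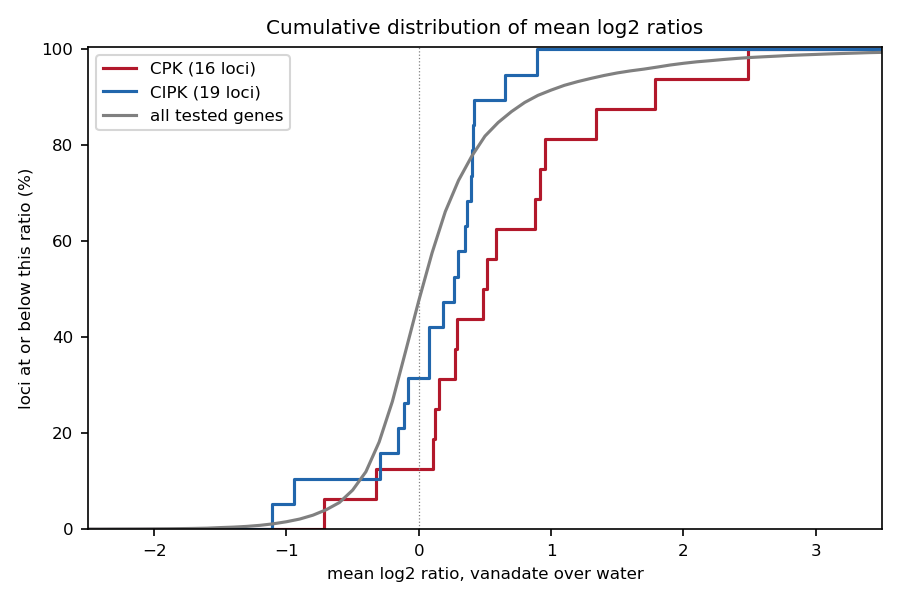
Percentage of loci at or below each mean log2 ratio, vanadate over water, for the 16 tested CPK loci (red), the 19 tested CIPK loci (blue) and all 22130 tested genes (grey). At their medians of 0.50 and 0.27 both families lie to the right of all genes, with a median of 0.02, and in this setting the CPK curve has 3 loci at a rise of at least 2-fold and the CIPK curve 0.

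Os02g0126400 rose most among the CPK loci. Its normalized intensity was 4121, 3968 and 3406 in vanadate roots of replicates 1, 2 and 3, against 802, 692 and 572 in water roots. All vanadate values lay above all water values, with the lowest vanadate value far from the highest water value. The log2 ratio was 2.49 ± 0.08 (limma's moderated SE, n = 3 arrays, adjusted p = 6.64e-06), a 5.60-fold rise, and 383 of the 22130 tested genes had a higher ratio. The locus had 3 probes, and the other probes were also called higher, at 2.46 and 2.45.

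Os05g0585500 had normalized intensities of 6859, 5566 and 5643 in vanadate roots, against 1570 (1569.6), 1709 and 1966 in water roots. The groups did not overlap, and replicate 1 showed both the highest vanadate value and the lowest water value. The log2 ratio was 1.78 ± 0.13 (SE, n = 3 arrays, limma adjusted p = 0.000105), a 3.44-fold rise. At Os07g0568600 the intensity was 1702, 3172 and 3161 in vanadate roots and 773, 1182 and 1162 in water roots. Replicate 1 was low in both channels, and the ratios of the 3 arrays, at 1.14, 1.42 and 1.44, lay close together. The rise was 2.52-fold at a log2 ratio of 1.34 ± 0.09 (SE, n = 3 arrays, limma adjusted p = 0.000101), while the second, dimmer probe of this locus gave a smaller rise of 0.70 ± 0.10 (SE).

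The next CPK loci rose by a little under 2-fold. Os02g0685900 had 2863, 2904 and 2427 in vanadate roots, against 1536, 1576 and 1147 in water roots. Os04g0584600 had 7378, 7610.3 and 6303 in vanadate roots, against 3511, 4129.6 and 3614 in water roots. At both loci every vanadate value exceeded every water value, and the rises were 1.94-fold (log2 ratio 0.95 ± 0.08, SE, limma adjusted p = 0.000255) and 1.89-fold (0.92 ± 0.09, SE, limma adjusted p = 0.00037). The second tested probe of Os04g0584600 was called higher at 1.37 ± 0.10 (SE). Os08g0540400 had 1037, 833 and 547 in vanadate roots and 399, 520.5 and 367 in water roots. Its groups did not overlap either, but the lowest vanadate and the highest water value were near each other, and the ratio of replicate 1, at 1.38, stood above the 0.68 and 0.58 of replicates 2 and 3. The mean rise was 1.84-fold at 0.88 ± 0.16 (SE, n = 3 arrays, limma adjusted p = 0.00523).

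**Figure D3:**
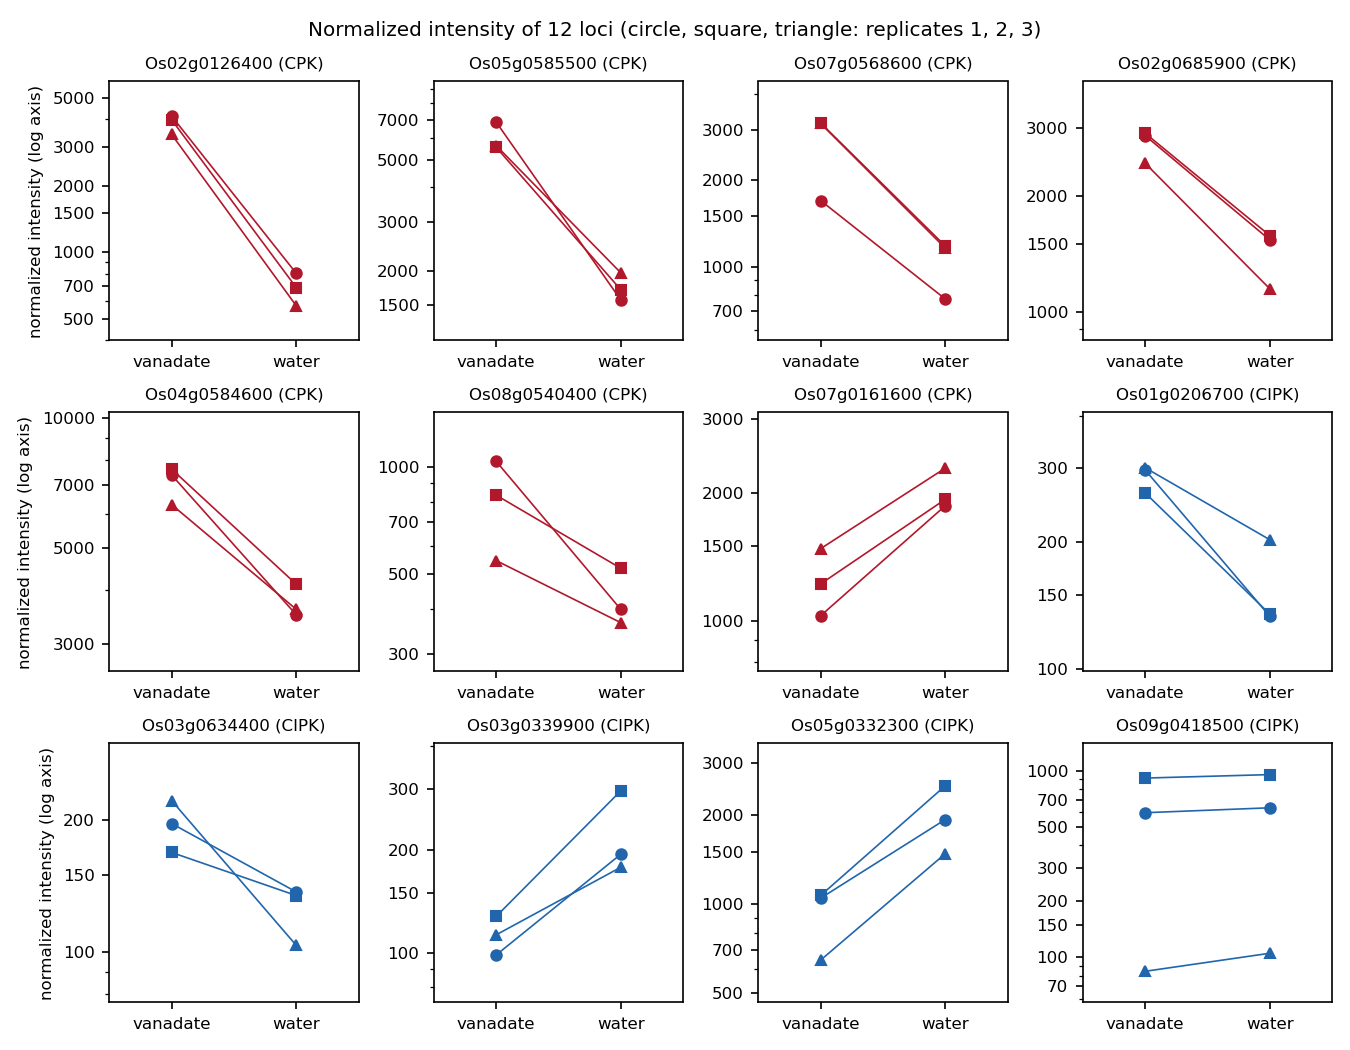
Normalized intensity, after loess and scaling between arrays, on a log axis in the vanadate (left) and the water channel (right) of 7 CPK loci (red) and 5 CIPK loci (blue), with circle, square and triangle for replicates 1, 2 and 3 and a line joining the channels of an array. Lines fall to the right where vanadate was higher, as at Os02g0126400 (5.60-fold), and rise where it was lower, as at Os05g0332300 (2.15-fold). Os09g0418500 has the triangle far below the other symbols in both channels.

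A further 4 CPK loci were called higher at log2 ratios of 0.28 to 0.58. At Os11g0171500 (1.40-fold) the ratios of 0.46, 0.46 and 0.53 nearly coincided, and at Os07g0409900 (1.43-fold) the 3 probes all rose, at 0.52, 0.61 and 0.51. Both lost their call under median centring of the arrays. Os04g0560600 was called at 0.28 ± 0.09 (SE, limma adjusted p = 0.0335), with intensities of 204, 211 and 273 in vanadate roots that overlapped the 185, 169 and 209 of water roots. Its call was lost without replicate 2, without replicate 3, under median centring, with the processed signals, in the authors' deposited value table and with the channels as separate samples.

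Os03g0128700, the last of these, gave an answer that differed between its 6 probes. The representative probe had ratios of 0.77, 0.75 and 0.22 on replicates 1, 2 and 3 (mean 0.58 ± 0.13, SE, limma adjusted p = 0.0102). Of the other probes, 3 were called higher at 0.42 to 0.68, and 1 was not called at -0.02. The sixth probe, the only one placed wholly in the coding sequence by its name, had an outlier flag on replicate 3 and was left out, with ratios of -0.25 and -0.07 on replicates 1 and 2. With flagged spots kept this probe had the highest mean signal and represented the locus, which then stood at -0.23 (limma adjusted p = 0.0747). On all 5 probes with a value on every array, replicate 3 had the lowest ratio. The call was also lost without replicate 1, under median centring, with the processed signals, in the authors' deposited value table and with the channels as separate samples, and the locus is listed as uncertain.

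Os07g0161600 was the CPK locus that fell. Its intensity was 1028, 1222 and 1479.5 in vanadate roots, against 1868, 1934 and 2291 in water roots, with no overlap. The fall was 1.65-fold at a log2 ratio of -0.72 ± 0.09 (SE, n = 3 arrays, limma adjusted p = 0.000937). This probe lies in an untranslated region by its name. The other probe, which covers coding sequence and 3' untranslated region, had ratios of -0.45, 0.03 and 0.19 and was not called, so the fall rests on 1 of 2 probes. As the mean over both probes the ratio was -0.40 (limma adjusted p = 0.023).

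The 5 CPK loci without a call had log2 ratios of -0.33 to 0.27. Os02g0832000 was the lowest, at 953, 916 and 847 in vanadate roots against 967, 1191 and 1264 in water roots. The groups did not overlap, yet the ratios of -0.02, -0.38 and -0.58 differed so much between arrays that the mean of -0.33 ± 0.12 (SE, limma adjusted p = 0.0609) was not called. It was called lower without replicate 1 (limma adjusted p = 0.0197), with slide as a block (0.0125) and with the processed signals (0.0239). Os03g0808600, at 0.27 ± 0.11 (SE, limma adjusted p = 0.0921), had ratios of 0.48 and 0.36 on the slide of replicates 1 and 2 and of -0.03 on replicate 3, and was called higher without replicate 3 at 0.42 (limma adjusted p = 0.0106). Os07g0515100, with 3 probes at 0.06 to 0.15, Os03g0688300 at 0.15 and Os12g0133500 at 0.12 were not called. Another 5 CPK loci, Os01g0808400, Os03g0789000, Os05g0491900, Os11g0136600 and Os12g0486600, were dim in both channels of each array, with intensities of 71.5 to 109.8, and were not tested.

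Os01g0206700 and Os03g0634400 had the 2 highest fitted ratios among the tested CIPK loci, but were too dim in water roots for their rises to be ranked. The intensity of Os01g0206700 was 297, 262 and 301 in vanadate roots, against 133, 135 and 203 in water roots, where its signal passed the background test on only 1 array. Every vanadate value lay above every water value, and the ratios were 1.16, 0.96 and 0.57 on replicates 1, 2 and 3. The rise was 1.86-fold at 0.90 ± 0.12 (SE, n = 3 arrays, limma adjusted p = 0.00166), and all 3 other probes rose, at 0.42 to 0.64. With the processed signals the log2 ratio was 1.43.

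Os03g0634400 had 197, 169 and 222 in vanadate roots and 137, 135 and 104 in water roots. The groups did not overlap, and the ratio was largest on replicate 3, at 1.10 against 0.52 and 0.33 on replicates 1 and 2. The log2 ratio was 0.65 ± 0.15 (SE, n = 3 arrays, limma adjusted p = 0.0132). In water roots its signal never passed the background test. By the rule for dim channels Os03g0634400 was at least 1.57-fold higher in vanadate on these arrays, and at least 1.34-fold without replicate 3. For such a bound, the dim channel was raised on each array to the lowest signal that still counted as well above background wherever its own value was lower. It leaves out the error between arrays and is open to dye bias, and here it equals the fold of the fitted log2 ratio, so that it bounds nothing beyond that fit. With the processed signals the log2 ratio was 1.62.

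The other 8 CIPK rises were small, at log2 ratios of 0.27 to 0.41, that is 1.20-fold to 1.33-fold. Os07g0687000 had 219, 259.5 and 239 in vanadate roots against 178, 196 and 165 in water roots, without overlap, and a log2 ratio of 0.41 ± 0.08 (SE, limma adjusted p = 0.0079). Os05g0136200 had 6586, 5079 and 5964 in vanadate roots against 4279, 4050.3 and 4905 in water roots, also without overlap, at 0.41 ± 0.10 (SE, limma adjusted p = 0.0137), and its second probe rose by 0.37. The call of Os05g0136200 was lost without replicate 1, in the authors' deposited value table and with the scanner's processed signals.

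Os07g0678300 had 14448, 10799 and 12533 in vanadate roots against 10812, 8712 and 9006 in water roots. Its groups overlapped narrowly, with replicate 1 high and replicate 2 low in both channels, while the ratios of 0.42, 0.31 and 0.48 were alike (mean 0.40 ± 0.08, SE, limma adjusted p = 0.00743). Os02g0161000 also overlapped between groups, with 1703, 1444 and 1053 in vanadate roots against 1456, 1025 and 762 in water roots, and a mean of 0.40 ± 0.09 (SE, limma adjusted p = 0.0119). Os01g0292200 had the most even ratios, at 0.35, 0.38 and 0.32, and its 3 probes all rose. Os01g0759400 (0.37), Os01g0206300 (0.30) and Os06g0606000 (0.27) completed the rises. All 8 of these small rises lost their call under median centring and with the channels as separate samples, and 5 lost it without replicate 2: Os01g0292200, Os01g0206300, Os01g0759400, Os06g0606000 and Os02g0161000. Os06g0606000 lost it without any one of the 3 replicates, and Os01g0206300 also without replicate 3. With the processed signals, and likewise in the authors' deposited value table, 4 lost it: Os01g0206300, Os01g0759400, Os05g0136200 and Os02g0161000.

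Of the 3 CIPK loci that fell, Os05g0332300 was well above background in both channels. It had 1047, 1069 and 645 in vanadate roots, against 1934, 2518 and 1481 in water roots. The groups did not overlap, although replicate 3 was dimmer than the others in both channels. The fall was 2.15-fold at a log2 ratio of -1.11 ± 0.10 (SE, n = 3 arrays, limma adjusted p = 0.000268), 239 of the 22130 tested genes had a lower ratio, and the second probe fell by 0.86 on the log2 scale.

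Os03g0339900 had 98.9, 128 and 113 in vanadate roots, against 194, 297 and 178 in water roots. In vanadate roots its signal never passed the background test, and by the same rule this probe was at least 1.93-fold lower in vanadate, again equal to the fitted fold, and at least 1.76-fold without replicate 2. The log2 ratio was -0.95 ± 0.12 (SE, n = 3 arrays, limma adjusted p = 0.00113). It was -2.56 with the processed signals and -0.87 with slide as a block. As the mean over the tested probes of the locus, which leaves out its dim probes, it was -0.78. Its fall was therefore not ranked against that of Os05g0332300. The probe over 5' untranslated region and coding sequence fell as well, at -0.62 ± 0.10 (SE), whereas both probes over coding sequence and 3' untranslated region were dim throughout. Os01g0536000 was called lower at -0.29 ± 0.08 (SE, limma adjusted p = 0.0246), with 308, 379.6 and 320.4 in vanadate roots overlapping the 374, 495 and 371 of water roots. This call was lost without replicate 1 (limma adjusted p = 0.0668), without replicate 2 (limma adjusted p = 0.19), under median centring (limma adjusted p = 0.0722), in the authors' value table after median centring (limma adjusted p = 0.0978) and with channels as separate samples (limma adjusted p = 0.256).

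The 6 CIPK loci without a call had log2 ratios of -0.16 to 0.18. Os11g0113700 and Os12g0113500 both stood at 0.08, with overlapping groups. The ends of chromosomes 11 and 12 carry duplicated genes in rice, and cross-hybridisation between loci of these ends was not tested. Os05g0514200 was not called at 0.18 ± 0.09 (SE, limma adjusted p = 0.14), while its second probe was called higher at 0.44 ± 0.13 (SE, limma adjusted p = 0.0279). Os03g0126800 (-0.08), Os07g0150700 (-0.11) and Os09g0418500 (-0.16) had means below 0. Os01g0759200 was dim in both channels of each array and was not tested.

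Outlier flags left 3 loci without a value on every array, and 1 of these carried a large ratio. At the CIPK locus Os07g0637000 the arrays of replicates 1 and 2, which had no flag, gave log2 ratios of 1.55 and 1.48, above those of every tested CIPK locus. The flagged spot of replicate 3 gave 1.68. With flagged spots kept, a choice made after the values were seen, Os07g0637000 was called higher at 1.57 (limma adjusted p = 3.00e-05). The count of rises then became 11 of 21 tested CIPK loci and 9 of 17 tested CPK loci, with 29% of all tested genes. The CIPK count of 0 rises of at least 2-fold thus also leaves out a locus that passed 2-fold on both unflagged arrays. The CPK locus Os01g0622600 and the CIPK locus Os08g0441100 had a flag on replicates 2 and 3, and were at -0.11 and -0.18 on replicate 1.

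**Figure D4:**
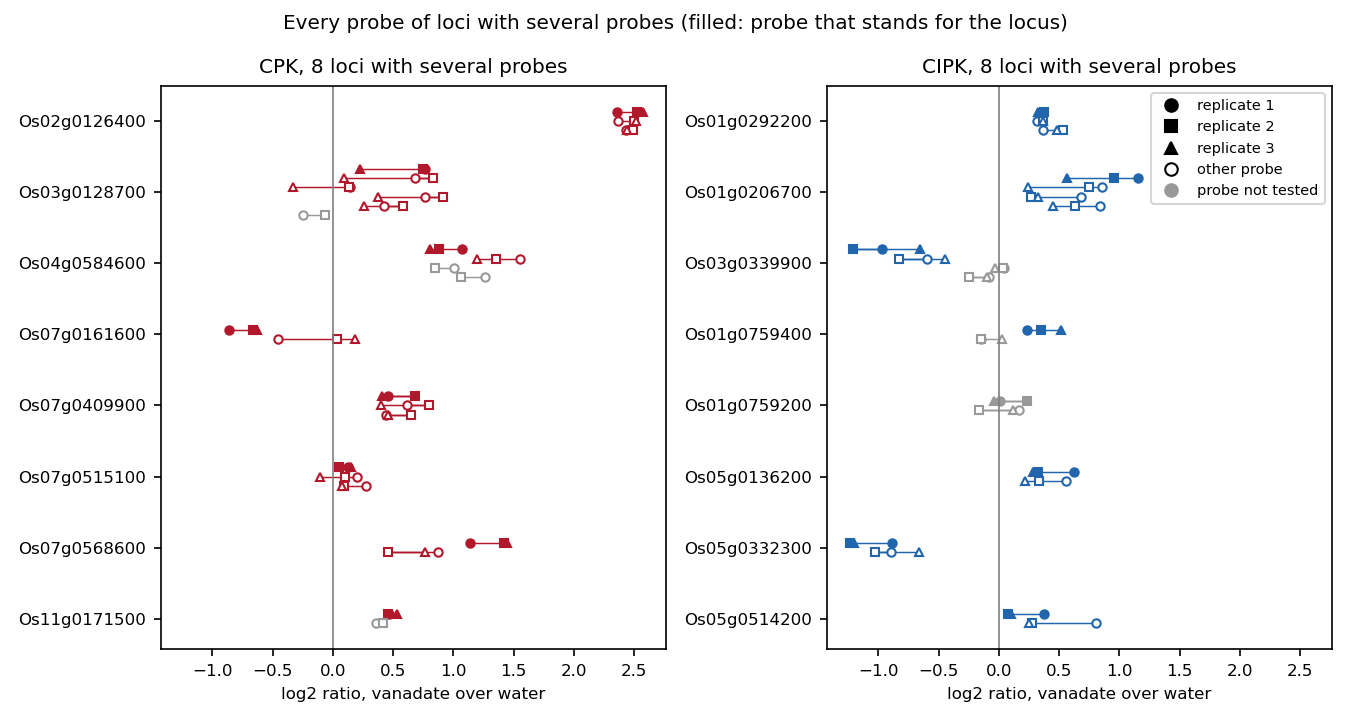
Log2 ratio, vanadate over water, of every probe of the 8 CPK (left) and 8 CIPK (right) loci with several probes, with circle, square and triangle for replicates 1, 2 and 3. Filled coloured symbols mark the probe that represents a tested locus, open symbols its other probes, and grey those not tested. The probes of Os02g0126400 coincide near 2.5, while those of Os03g0128700 spread on both sides of 0.

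Of the 44 loci, 8 CPK and 8 CIPK loci had several probes. Among the tested other probes of called loci, 9 of 11 in the CPK family and 8 of 8 in the CIPK family were called in the same direction as the probe standing for the locus, with 0 called against it. The probes of a locus share its transcript and the labelled RNA and are not independent. Vanadate and water levels did not overlap over the 3 arrays, with vanadate the higher, at 9 tested CPK and 6 tested CIPK loci, with 23.6% of all tested genes. They did not overlap with vanadate the lower at 2 CPK and 2 CIPK loci, with 16.6% of all tested genes. These CIPK counts include Os01g0206700 and Os03g0634400, dim in water, and Os03g0339900, dim in vanadate. Their dim channel passed the background test on at most 1 array, and they entered the test through the brighter channel.

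The list holds 2 pairs of loci that are neighbours by number, both on chromosome 1. Os01g0206700 rose by 0.90, and its neighbour Os01g0206300 by 0.30, with 310.3, 481 and 294 in vanadate roots against 278, 357 and 239 in water roots. Os01g0759400 rose by 0.37, with 1720.4, 1266 and 2761 in vanadate roots against 1460.2, 992 and 1935 in water roots. The second probe of Os01g0759400 was dim in both channels of each array and was not tested. Its neighbour Os01g0759200 was dim. The differences within the pairs were not tested.

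The counts were also set beside loci of the same pathway, listed from background knowledge and not annotated in the files. Over all tested genes 29.1% were called higher and 20.7% lower. Of 8 tested loci listed as CBL sensors, 2 were called higher and 4 lower, at a median of -0.25. The rises were those of Os10g0564800, 1.74-fold (log2 ratio 0.80 ± 0.08, SE, limma adjusted p = 0.000492), and Os01g0711500, 1.55-fold (0.63 ± 0.08, SE, limma adjusted p = 0.00102). The largest fall was that of Os01g0598200, 1.92-fold lower in vanadate (-0.94 ± 0.08, SE, limma adjusted p = 0.000282). Of 5 loci listed as calmodulins, the general calcium sensors, 1 rose (Os05g0577500, 0.86) and 1 fell (Os07g0687200, -0.36). The locus listed as a calcium- and calmodulin-dependent kinase, Os05g0489900, fell by 0.65 on the log2 scale, with -0.67, -0.62 and -0.66 on replicates 1, 2 and 3. Of 2 tested loci listed as ion transporters, 0 were called at an adjusted p under 0.05 in limma.

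Further loci of the same families, absent from the list of 44, were counted in the same way. Their counts stand beside the 29.1% of all tested genes called higher and the 20.7% called lower. Of 4 tested further CPK loci, 1 rose, Os03g0788500 at 1.45 ± 0.11 (SE, limma adjusted p = 0.000134), and 1 fell. Of 6 tested further CIPK loci, 1 rose, Os09g0418000 at 0.88, and 4 fell, among them Os03g0319400 at -1.10 and Os06g0543400 at -1.07, both more than 2-fold. With these loci added, 11 of 20 CPK loci were called higher and 2 lower at a median of 0.38, and 11 of 25 CIPK loci were called higher and 7 lower at a median of 0.08. The share of CIPK loci that rose therefore depends on which loci stand for the family.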

How the data were processed

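The scanner files hold spot intensity values per the file headers, written by Agilent Feature Extraction 10.7.1.1: median signal and local background, uncorrected, and processed signals, from which the software had removed background and dye bias. A value table deposited by the authors gives log2 ratios. On each array at least 99.1% of these values matched the log2 quotient of the processed red and green signals to 0.001, so the table runs as vanadate over water, uncentred (medians -0.19, -0.21 and -0.05).

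Here median signals were corrected with normexp (offset 50) and normalized by loess within arrays (limma 3.58.1, R 4.3.3). Control spots had weight 0, and outlier-flagged spots were left out. Replicate spots were averaged per probe. Tests covered the 31158 of 42418 gene probes measured on all 3 arrays whose red or green signal passed the scanner's background test on 2 or more of them. The mean log2 ratio was tested against 0 with lmFit and eBayes, Benjamini-Hochberg adjusted over all tested probes at a threshold of 0.05. Levels are channel intensities after loess and Aquantile. The number of arrays limits the precision.

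Members, lists and tests were chosen with earlier results of these data known. The rule for values per array took up to 6 called loci per family and direction, loci whose probes were called in opposite directions, and neighbours within 500 by number. Other loci given with values per array, among them Os03g0128700, Os02g0832000, Os07g0637000 and Os09g0418500, were added after their values were seen. The reference table (assembly ASM3414082v1) matched 0 of the loci. Alternatives are given at the end.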

Additional observations from a re-analysis of the deposited data

How the results depend on the processing

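Over 15 alternatives the calls of 6 of 10 CPK rises, the CPK fall, 2 of 10 CIPK rises (Os01g0206700 and Os03g0634400) and 2 of 3 CIPK falls held wherever the locus was tested. A filter asking for both channels on every array left 15 CPK and 15 CIPK loci. The called loci that it left out were Os01g0206700, Os03g0634400 and Os03g0339900, which had passed through their brighter channel. This filter gave 8 CIPK rises and 2 falls, with 27% of all tested genes called higher and 22.8% lower. It could therefore not test the calls of these 3 loci. Of the CIPK calls that held, only the fall of Os05g0332300 was also tested under this filter. The CPK rises that held over the alternatives were those of Os02g0126400, Os02g0685900, Os04g0584600, Os05g0585500, Os07g0568600 and Os08g0540400. Stability was also counted for the 18 tested loci that the rule for values per array picked by their ratios or as neighbours. Of their 267 values, 236 kept direction and side of the threshold and 31 kept direction but lost the call. That tally leaves out 4 CPK and 2 CIPK rises, which kept their call in 9 to 14 of the 15 alternatives. Over all 35 tested loci 12 of 520 values turned sign, at 5 loci, of which Os03g0128700 had been called. With processed signals, as in the authors' value table, 2 CPK loci were called lower and 6 CIPK loci higher, with medians of 0.37 (CPK) and 0.16 (CIPK). These lie 0.48 and 0.28 above the median of all genes under that setting, against 0.48 and 0.25 in the main setting. Under median centring 6 CPK and 2 CIPK loci were higher, with medians of 0.39 and 0.22. With an offset of 16 the CIPK median was 0.33, and in the authors' table after median centring, an alternative added after seeing the data, 0.31. Without a filter on dim probes the CPK median was 0.27, with 5 dim loci entered, against 0.23 for CIPK, and with flagged spots kept, also added later, 0.28 against 0.27. With slide as a fixed block 2 of 16 CPK loci were lower, with 23.2% of all tested genes. With channels as separate samples, that is with no replicate block, 2 CIPK loci were higher. Leaving out 1 replicate gave 9 to 10 CPK and 5 to 8 CIPK rises, 1 to 2 CPK and 2 to 3 CIPK falls, and medians of 0.46 to 0.51 (CPK) and 0.22 to 0.29 (CIPK). The share of all tested genes called higher also moved, from 29.1% in the main setting to 22.5% with processed signals. It was 18.8% under median centring and 15.2% with channels as separate samples. With 1 replicate left out it was 22.7% to 26.6%. The share called lower was 20.7% in the main setting and 31% with processed signals. Under median centring 14.6% were called lower, and 6.57% with channels as separate samples. Leaving out 1 replicate gave 12.6% to 16.9% called lower. The cause of these shifts was not tested. For Os03g0339900, dim in vanadate, the log2 ratio was -2.56 with processed signals and -1.22 with an offset of 16.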

Other observations

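At the CIPK locus Os09g0418500 the arrays differed in level in both channels. Its normalized intensity was 596 and 914 in vanadate roots of replicates 1 and 2 and 84.3 in those of replicate 3, against 633, 954 and 105 in water roots. On replicate 3 neither channel was well above background, so that the mean of replicates 1 and 2 was at least 7.997-fold that of replicate 3 in the vanadate channel and at least 7.38-fold in the water channel. The log2 ratio was -0.09 and -0.06 on replicates 1 and 2, and its value of -0.32 on replicate 3 rests on signals not above background. With processed signals the mean was -0.41 and was called lower (limma adjusted p = 0.0251). A drop of at least 4-fold on replicate 3 in both channels occurred at 10 of the 22130 tested genes, and a gain of that size at 24. No other tested locus of the families dropped by as much as 2-fold in either channel. Replicate 3 lay on its own slide, scanned on another day, so that slide, scan day and replicate cannot be told apart.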
